A study of Mus musculus with 4 samples.

Results

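The ephrin, semaphorin, Slit and netrin families were examined in sorted mouse mammary cells through every row of the gene table whose symbol belongs to the Eph receptors, ephrins, semaphorins, plexins, neuropilins, Slits, Robos, netrins or Unc5 receptors. The rule reads symbols and no measured value, and it found 73 of the 24442 rows. They comprised 8 ephrins, 14 Eph receptors, 20 semaphorins, 11 plexins and neuropilins, 7 Slits and Robos, 10 netrins and Unc5 receptors, and 3 rows that share only the name. Those 3 were Unc50 (a membrane protein of the secretory pathway), Unc5cl (a death-domain protein) and Plxna4os1 (a transcript opposite Plxna4), so 70 rows were guidance genes proper, 37 ligands and 33 receptors. The cells came from mammary glands of 5-week-old female Lgr6-eGFP-CreErt2 mice, which carry eGFP together with a CreErt2 recombinase from the Lgr6 locus, whose gene encodes a receptor of R-spondins. Both populations share this genotype and an enzymatic digest, and no treatment is named. The Lgr6-positive population was sorted from lineage-negative cells. How Lgr6-negative cells were gated, and which markers defined the lineage, is not given in the sources used. Each population had 2 libraries of RNA sequencing. Nothing in the labels ties a replicate to an animal of its own. The p-values below therefore measure the spread between these libraries, which may be technical.

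These families were named for the steering of growing axons, and all of them also act outside the nervous system. Ephrins are held at the membrane and bind Eph receptor tyrosine kinases on a neighbouring cell. Semaphorins, secreted or membrane-bound, act through plexins, with neuropilins as co-receptors for most secreted members. Slits bind Robo receptors, and netrins bind Dcc, neogenin and Unc5 receptors. In the mammary gland, netrin 1 with neogenin and Slit with Robo1 are known for keeping the layers of the growing duct together, and ephrin B2 with Ephb4 is known for the boundary between arteries and veins.

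Library totals lay between 6819127 and 7167465 counts, and 61 and 47 of the 73 members had counts in Lgr6-positive against 39 and 49 in Lgr6-negative libraries. Lgr6 itself had 172 and 655 counts in Lgr6-positive against 3 and 10 in Lgr6-negative libraries, which follows the labels (edgeR adjusted p = 0.0510). Markers of several cell types had counts in both populations. The summed level of 13 leukocyte markers was 1945 and 2288 CPM (TMM-normalized counts, scaled to a common library size) in Lgr6-positive against 30965 and 35188 CPM in Lgr6-negative libraries, and 10 of the 13 were lower in the Lgr6-positive population. Luminal epithelial markers summed to 5071 and 4932 against 171 and 151 CPM (8 of 10 higher), and basal epithelial markers to 2042 and 2220 against 234 and 208 CPM (4 of 7 higher). Endothelial markers summed to 1455 and 1755 against 214 and 138 CPM (5 of 7 higher), and fibroblast markers to 715 and 453 against 29.2 and 60.1 CPM (2 of 6 higher, Pdgfra at 0 in both Lgr6-negative libraries). Pericyte markers summed to 180 and 84.3 against 1.25 and 15.1 CPM (1 of 5 higher), and Schwann cell markers to 59.5 and 99.3 against 11.9 and 13 CPM (1 of 3 tested higher, S100b at 0 in both Lgr6-negative libraries). None of the leukocyte, luminal, basal, endothelial or pericyte markers was at 0 throughout a population. Of 6 neuron markers, 5 (Tubb3, Elavl3, Elavl4, Syt1 and Rbfox3) had no counts in either Lgr6-positive library. The part of these cell types in the differences below was not tested. In bulk RNA such as this, fewer cells of a type and less RNA per cell cannot be told apart.

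Of the 73 members, 45 had enough counts to be tested. Lgr6-positive libraries were higher for the receptors Ephb4, Nrp2 and Plxna3 and lower for the ligands Sema4d, Sema4a and Ntng2, at an edgeR adjusted p under 0.05 over all genes. The 3 higher members are 6.67% of the 45, beside 4.49% of all 11661 tested genes called higher, and the 3 lower members are 6.67% beside 4.57%, so neither count lies far from its background. The 39 other tested members did not pass, with adjusted p from 0.0601 to 0.997. Their log2 fold changes, always given as Lgr6-positive over Lgr6-negative, ran from -2.04 to 6.52, and 35 of the 39 were above 0. At an unadjusted p under 0.05, 17 of the 45 (37.8%) were on the higher and 3 (6.67%) on the lower side, against 14.3% and 10.8% of all tested genes. The median over the 45 tested members was 2.63 on the log2 scale, and over all tested genes 0.10. Both Lgr6-positive libraries lay above both Lgr6-negative libraries for 25 of the 45 (55.6%, against 30.0% of all tested genes), and both lay below for 4 of the 45 (8.89%, against 25.9%). These counts are descriptions, because a gene with few counts in the Lgr6-negative libraries could enter the test only by being high in the Lgr6-positive ones. Among the tested members, 11 had no counts in Lgr6-negative replicate 1 and 2 had none in Lgr6-negative replicate 2, while none was without counts in an Lgr6-positive library.

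**Figure D1:**
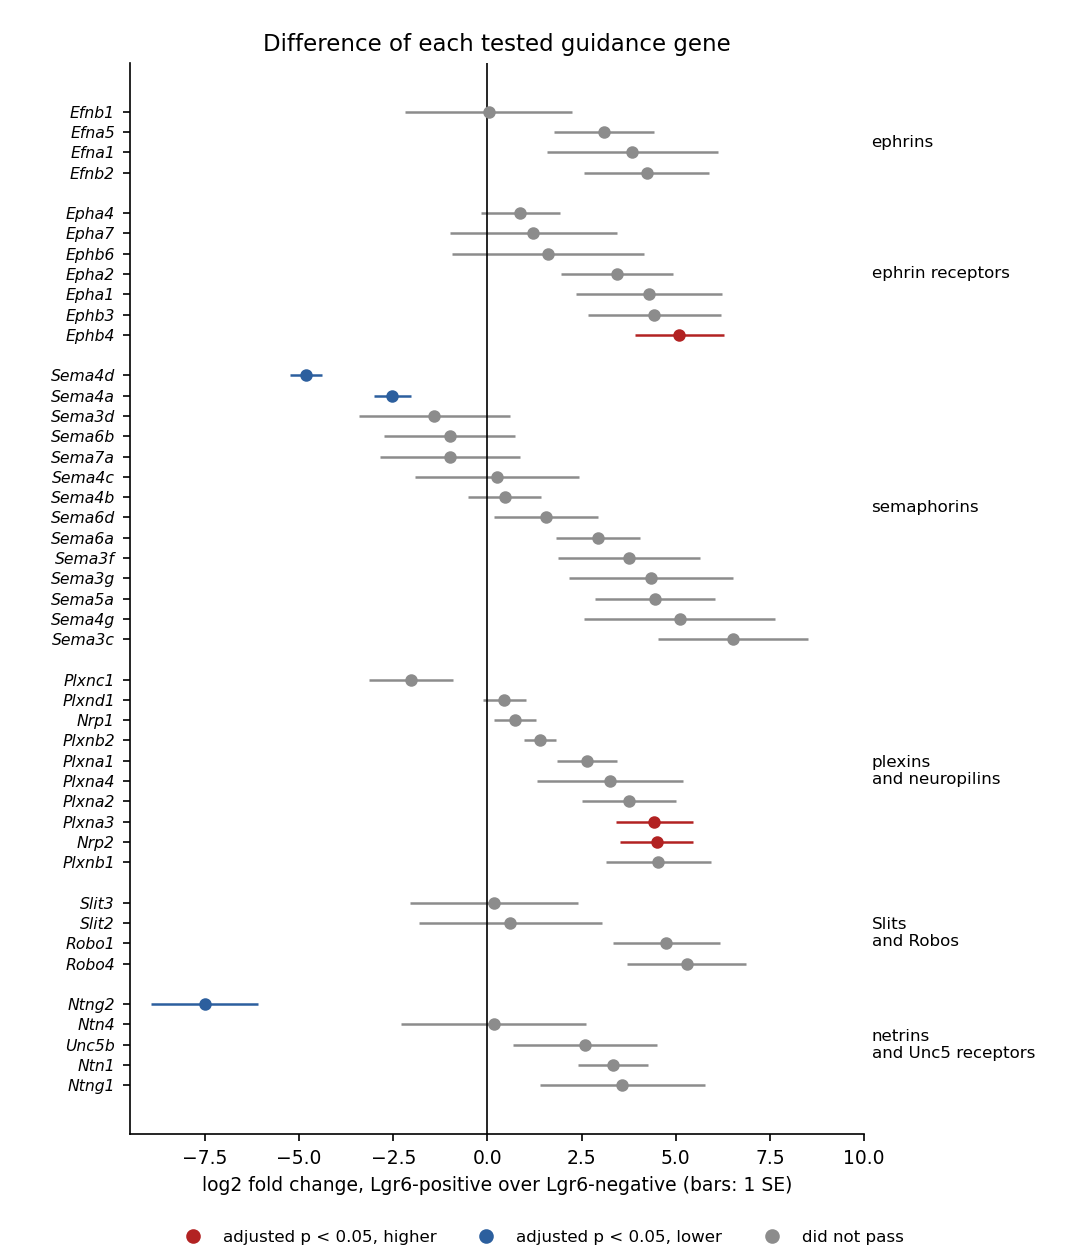
Log2 fold change (horizontal axis, Lgr6-positive over Lgr6-negative, bars 1 SE) of the 44 tested guidance genes by family, without Unc50. Red and blue points mark the 3 higher and 3 lower genes that passed the test, and most grey points lie right of 0 with wide bars.

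Replicates of these genes differed more than those of other genes in the Lgr6-negative pair, and about as much in the other. The median fold between replicates over the tested members was 2.18 for Lgr6-positive and 3.82 for Lgr6-negative libraries, against 2.03 and 1.81 over all tested genes. The genes compared were not matched for level, and 11 of the tested members had no counts in Lgr6-negative replicate 1. Of 20 tested receptors, 3 were higher and 0 lower, with a median log2 fold change of 3.35, and of 24 tested ligands, 0 were higher and 3 lower, with a median of 1.08. Over all tested genes 4.49% were higher and 4.57% lower. No test of receptors against ligands was made.

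The windows of 250 bases before the RefSeq start (build GRCm38.p6) are shown for the 3 called members whose window held no annotated exon, since these are stretches next to genes that were higher (Ephb4, Plxna3) or lower (Sema4a) in the Lgr6-positive libraries. Capitals mark matches, on either strand, of GGGCGG (a GC box) or GAGGAA (one ETS-type sequence, not every site of the Ets family). The shorter GGAA with other letters before it was not searched, and it stands unmarked in the Ephb4 and Plxna3 windows. TATAAA was searched as well, and matches of different motifs could overlap. Positions are chr5:137349859-137350108 on the plus strand for Ephb4, chrX:74328816-74329065 on the plus strand for Plxna3 and chr3:88461183-88461432 on the minus strand for Sema4a, each read in the direction of the gene.
Ephb4: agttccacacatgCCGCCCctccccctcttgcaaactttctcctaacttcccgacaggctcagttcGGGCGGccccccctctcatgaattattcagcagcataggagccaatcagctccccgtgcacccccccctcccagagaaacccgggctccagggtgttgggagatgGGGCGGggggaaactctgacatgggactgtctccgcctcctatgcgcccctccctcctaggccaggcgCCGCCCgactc
Plxna3: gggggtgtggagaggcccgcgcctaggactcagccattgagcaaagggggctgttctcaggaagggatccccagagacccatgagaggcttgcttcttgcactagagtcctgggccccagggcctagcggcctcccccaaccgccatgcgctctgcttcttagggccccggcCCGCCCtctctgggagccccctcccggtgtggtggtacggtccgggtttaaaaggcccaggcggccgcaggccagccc
Sema4a: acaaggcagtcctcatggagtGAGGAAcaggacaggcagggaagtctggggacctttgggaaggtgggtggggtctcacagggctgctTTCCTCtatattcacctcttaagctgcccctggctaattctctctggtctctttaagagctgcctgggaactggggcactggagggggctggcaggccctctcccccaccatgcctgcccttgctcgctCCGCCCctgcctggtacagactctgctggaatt
The Ephb4 window held 4 GC boxes at a GC content of 64.0%, and the Plxna3 window held 1 at 68.0%. The Sema4a window, the first of 4 starts listed, held 2 GAGGAA matches and 1 GC box at 59.6%. Among 63 members with a RefSeq promoter, 46 (73.0%) held a GC box, 17 (27.0%) GAGGAA and 2 (3.17%) TATAAA, with a median GC content of 64.4%. The shares among promoters of 17491 protein-coding genes were 42.7%, 22.1% and 12.4%, with a median GC content of 55.2%. Over all 27025 promoters they were 32.9%, 23.1% and 13%. These matches describe letters in the window and not a bound site.

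Among the Eph receptors, Ephb4 was higher in Lgr6-positive libraries, and the ephrins did not pass the test. Ephb4, the receptor kinase for ephrin B2, lies on chr5:137350109-137378669 (build GRCm38, plus strand). It had 1386 and 701 counts in Lgr6-positive against 4 and 39 in Lgr6-negative libraries, or 129 ± 57.4 CPM against 3.78 ± 4.46 CPM (SD, n = 2). Both Lgr6-positive libraries were far above both Lgr6-negative ones, and the latter stood at 0.624 and 6.93 CPM. This gave a log2 fold change of 5.10 (SE 1.18, edgeR adjusted p = 0.0310). With limma-voom the adjusted p was 0.0504, the highest over 13 alternatives (lowest 9.79e-07), and leaving out each library in turn gave log2 fold changes from 4.20 to 7.64, all passing. Its promoter is the first of those printed above.

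Ephb3, a receptor of the same class known from epithelia, had 172 and 195 counts against 11 and 2, or 22.9 ± 2.56 CPM against 1.04 ± 0.962 CPM, without overlap. Its log2 fold change of 4.44 (SE 1.76) did not pass (edgeR adjusted p = 0.153). Epha2, the epithelial receptor of ephrin A1, had 316 and 137 counts against 17 and 14, or 28.1 ± 15.1 CPM against 2.57 ± 0.116 CPM. The groups did not overlap, and the log2 fold change was 3.44 (SE 1.49, edgeR adjusted p = 0.189). Epha1 and Epha4 were among genes picked after their values were seen, and they differed from each other in pattern. Epha1 had 148 and 64 counts against 5 and 3, while Epha4, with 249 and 529 against 69 and 239, overlapped between populations. The 6 tested Eph receptors that did not pass had log2 fold changes from 0.87 to 4.44, and 7 of the 14 were too low to test.

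Of the 8 ephrins, 4 were tested and none passed, with log2 fold changes from 0.03 to 4.23. For 3 of the 4, both Lgr6-positive libraries lay above both Lgr6-negative ones, as for 30.0% of all tested genes. Efnb2 encodes the ligand of Ephb4 and lies on chr8:8617434-8661242. It had 559 and 958 counts in Lgr6-positive against 0 and 57 in Lgr6-negative libraries, or 95 ± 37.4 CPM against 5.07 ± 7.16 CPM. Both Lgr6-positive libraries were above both others, but the Lgr6-negative libraries ranged from no count to 57, and the log2 fold change of 4.23 (SE 1.67) had an edgeR adjusted p of 0.149. It passed under 5 of 13 alternatives, and with a library left out its log2 fold change ran from 3.22 to 12.47. Efna5, a ligand of the A class anchored by a lipid, had 561 and 261 counts against 68 and 7, with a log2 fold change of 3.10 (SE 1.33, edgeR adjusted p = 0.186). Efna1, the ligand of Epha2, had 237 and 36 counts against 0 and 13, with a log2 fold change of 3.85 (SE 2.28, edgeR adjusted p = 0.358). For Efna1 the lower Lgr6-positive library lay close to the higher Lgr6-negative one, at 4.56 against 2.31 CPM. Efnb2 and Ephb4 thus had the same order of libraries between populations, though not within the Lgr6-positive pair, where Ephb4 was higher in replicate 1 and Efnb2 in replicate 2.

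**Figure D2:**
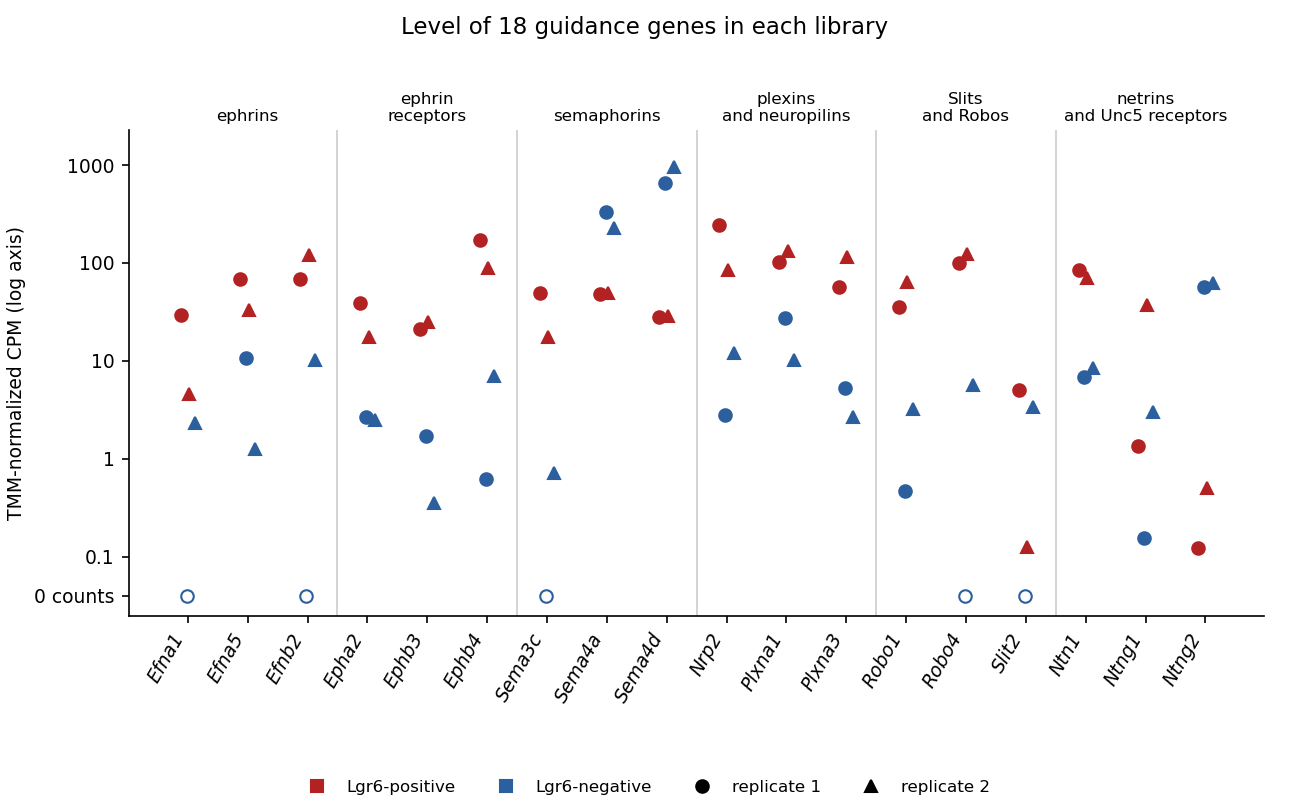
TMM-normalized CPM (log axis) of 18 guidance genes in each library, red for Lgr6-positive and blue for Lgr6-negative, circles for replicate 1 and triangles for replicate 2, open circles for 0 counts. Sema4d, Sema4a and Ntng2 are the genes whose blue points lie above the red ones, and Slit2 and Ntng1 overlap.

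The called semaphorins were lower in Lgr6-positive libraries. Of 20, 14 were tested, 0 were higher and 2 were lower, both from class 4, which spans the membrane. The 2 lower ones are 14.3% of the 14. Over all tested genes, 4.49% were higher and 4.57% lower. Sema4d, a ligand of Plxnb1 and of Cd72 that is abundant on T cells, lies on chr13:51685529-51793747 (minus strand). Its counts were 228 and 229 in Lgr6-positive against 4158 and 5338 in Lgr6-negative libraries, or 28.5 ± 0.749 CPM against 799 ± 212 CPM. Each Lgr6-negative library exceeded both Lgr6-positive libraries, which were nearly equal. The log2 fold change was -4.81 (SE 0.42, edgeR adjusted p = 5.56e-04), a 28.0-fold lower level, and it passed under all 13 alternatives, with adjusted p from 7.18e-20 to 0.005.

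Sema4a, a class 4 semaphorin known from dendritic cells and T cells, lies on chr3:88435959-88461182 (minus strand), and 1.35% of its exonic bases are shared with Mir7011. It had 393 and 390 counts against 2147 and 1272, or 48.8 ± 0.868 CPM against 281 ± 77.0 CPM, with no overlap. The log2 fold change was -2.52 (SE 0.50, edgeR adjusted p = 0.0164), a 5.75-fold lower level. Without Lgr6-negative replicate 1 the adjusted p was 0.0607, and with scaling by library size alone it was 0.0504, in a range from 2.05e-04 to 0.0607 over 13 alternatives. The leukocyte markers moved in the same direction as Sema4d and Sema4a, from 30965 and 35188 CPM in the Lgr6-negative to 1945 and 2288 CPM in the Lgr6-positive libraries, and their part in these differences was not tested.

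Of the 12 other tested semaphorins, 9 had a log2 fold change above 0 and 3 below, and none passed. Over all tested genes, 52.3% were above 0. Sema3c, a secreted class 3 member on chr5:17574281-17730268, had 403 and 139 counts against 0 and 4, or 33.5 ± 22.5 CPM against 0.356 ± 0.503 CPM. The groups did not overlap, and the Lgr6-negative counts were at or near the floor of 3 counts (0.468 and 0.533 CPM in those libraries). Its log2 fold change of 6.52 (SE 2.0) had an edgeR adjusted p of 0.0782 (passing under 5 of 13 alternatives, with log2 fold changes of 5.5 to 10.96 when a library was left out) and is not a bound, since it depends on how the fit treats the count of 0. Of the 14 tested semaphorins, 6 (42.9%) had both Lgr6-positive libraries above both Lgr6-negative ones, 2 (14.3%) had both below, and 6 overlapped. Over all tested genes, 30.0% lay above and 25.9% below. The semaphorins named next were picked after their values were seen, so they do not stand for the others. The secreted Sema3f had 207 and 392 counts against 0 and 31, and Sema3g had 155 and 138 against 0 and 10. Sema5a had 462 and 77 counts against 10 and 8, and Sema6a, a transmembrane ligand of A-class plexins, had 984 and 372 against 20 and 105. None of these 4 passed, with edgeR adjusted p-values of 0.268, 0.266, 0.119 and 0.135. Sema4g had 12 and 140 counts against 0 and 3, and did not pass (log2 fold change 5.10, SE 2.53, edgeR adjusted p = 0.261). Its pooled counts gave a 38-fold difference after TMM scaling (95% interval from counting error, 12.8 to 186). That interval leaves out the spread between the Lgr6-positive libraries, which stood at 1.47 and 17.7 CPM. Sema7a, a lipid-anchored ligand, had no consistent order, with 234 and 9 counts in Lgr6-positive against 6 and 329 in Lgr6-negative libraries.

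Plexins and neuropilins, the receptors of semaphorins, held 2 of the 3 higher members, and 10 of 11 were tested. The 2 higher ones are 20% of the 10, beside 4.49% of all tested genes. Nrp2, the co-receptor of Sema3f and of Vegf-C, lies on chr1:62703285-62818695 (plus strand). It had 2012 and 671 counts in Lgr6-positive against 18 and 67 in Lgr6-negative libraries, or 166 ± 114 CPM against 7.36 ± 6.44 CPM. The groups did not overlap, and the 2 Lgr6-positive libraries stood at 247 and 85 CPM. This corresponds to a log2 fold change of 4.49 (SE 0.96, edgeR adjusted p = 0.0226). Without Lgr6-positive replicate 1, the adjusted p rose to 0.0505 at a log2 fold change of 3.53, and limma-voom gave 0.10, the highest over 13 alternatives (lowest 6.07e-09).

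Plxna3, an A-class plexin that works with neuropilins, lies on chrX:74329066-74344689 (plus strand). Counts were 467 and 913 against 34 and 15, or 86.5 ± 41.3 CPM against 3.99 ± 1.87 CPM, again without overlap. A log2 fold change of 4.43 (SE 1.03) had an edgeR adjusted p of 0.0311. It did not pass without Lgr6-positive replicate 2 (adjusted p = 0.110), without Lgr6-negative replicate 2 (0.0538) or with limma-voom (0.0917), and the lowest value over 13 alternatives was 1.13e-05. For the endothelial markers beside Ephb4, Nrp2 and Plxna3, the sums were 1455 and 1755 CPM in Lgr6-positive against 214 and 138 CPM in Lgr6-negative libraries, and those for luminal epithelium were 5071 and 4932 against 171 and 151 CPM. The sums for basal epithelium, fibroblasts, pericytes and Schwann cells had the same order, and those for leukocytes the opposite one. The part of any of these cell types in the higher receptor levels was not tested.

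All 4 A-class plexins lay higher in both Lgr6-positive libraries than in both Lgr6-negative ones, as did 30.0% of all tested genes. Of the 4, only Plxna3 passed. Plxna1 had 827 and 1043 counts against 176 and 57, or 117 ± 21.7 CPM against 18.8 ± 12.3 CPM, with a log2 fold change of 2.63 (SE 0.80, edgeR adjusted p = 0.0754). Of its exonic bases, 10.7% are shared with Gm26811. Plxna2, with 791 and 214 counts against 13 and 40, and Plxna4, with 241 and 251 against 0 and 36, were picked after their values were seen, and neither passed (edgeR adjusted p = 0.0971 and 0.362). The other plexins and Nrp1 were likewise picked afterwards, and their differences ranged more widely. Plxnb2, a B-class plexin, had the narrowest error of the family, with 2360 and 3762 counts against 896 and 842 and a log2 fold change of 1.40 (SE 0.43, edgeR adjusted p = 0.0782). Plxnb1, the receptor of Sema4d, had 535 and 711 counts against 2 and 36, with a log2 fold change of 4.54 (SE 1.40, edgeR adjusted p = 0.0788). Receptor and ligand thus stood in opposite order, Plxnb1 at 65.6 and 90.1 CPM against 0.312 and 6.40 CPM, and Sema4d at 28.0 and 29.0 CPM against 649 and 949 CPM. Nrp1, the co-receptor of Sema3a and Vegf-A, had 879 and 1363 counts against 511 and 505 (log2 fold change 0.73, SE 0.56, edgeR adjusted p = 0.499). Plxnd1, the receptor of Sema3e, overlapped between populations, with 2022 and 762 counts against 816 and 705. Plxnc1, the receptor of Sema7a, was the single tested receptor with a negative value, with 33 and 211 counts against 316 and 434 and a log2 fold change of -2.04 (SE 1.12, edgeR adjusted p = 0.316). Without Lgr6-positive replicate 2 its log2 fold change was -3.99 with an adjusted p of 0.0381, the lowest over 13 alternatives (highest 0.632).

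Among Slits and Robos, 4 of 7 were tested and none passed. For both tested Robos, each Lgr6-positive library lay above both Lgr6-negative ones, as for 30.0% of all tested genes. Robo4, the Robo of endothelium, lies on chr9:37401897-37415115 and had 820 and 967 counts against 0 and 32, or 112 ± 15.5 CPM against 2.84 ± 4.02 CPM. Its log2 fold change was 5.30 (SE 1.58, edgeR adjusted p = 0.0725), and it passed under 8 of 13 alternatives. With a library left out, the value ran from 4.28 to 12.70. Robo1, the Slit receptor of mammary basal cells, had 288 and 505 counts against 3 and 18, or 49.7 ± 20.3 CPM against 1.83 ± 1.93 CPM. Its log2 fold change was 4.75 (SE 1.43, edgeR adjusted p = 0.0742), and it passed under 5 of 13, with values from 3.94 to 6.67 when a library was left out. Both Robos had Lgr6-positive libraries far above the Lgr6-negative ones. Endothelial markers beside them summed to 1455 and 1755 against 214 and 138 CPM, and basal markers to 2042 and 2220 against 234 and 208 CPM. The sums for luminal epithelium, fibroblasts, pericytes and Schwann cells had the same order. The part of any of these cell types was not tested. The ligand Slit2 was low throughout, with 41 and 1 counts against 0 and 19, and its log2 fold change of 0.61 (SE 2.43, edgeR adjusted p = 0.928) changed sign with the library left out, from -3.55 without Lgr6-positive replicate 1 to 7.26 without Lgr6-negative replicate 2.

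In the netrin family, Ntng2 was lower and Ntn1 fell just short of the threshold on the higher side. Ntng2 encodes netrin G2, a lipid-anchored relative of the secreted netrins that binds Lrrc4 and neither Dcc nor Unc5 receptors. It lies on chr2:29194541-29253005 (minus strand), and 14.0% of its exonic bases are shared with 6530402F18Rik. As the strand setting of the counting is not stated in the sources used, reads over shared bases cannot be assigned to either gene with certainty. Counts were 1 and 4 in Lgr6-positive against 367 and 355 in Lgr6-negative libraries, or 0.315 ± 0.272 CPM against 60.2 ± 4.13 CPM. The Lgr6-negative libraries agreed closely, and the Lgr6-positive ones lay near the floor of 3 counts. On the log2 scale the fold change was -7.51 (SE 1.42, edgeR adjusted p = 0.0139), and it passed under all 13 alternatives, with adjusted p from 8.52e-09 to 0.0252. The leukocyte marker sums, 30965 and 35188 CPM in the Lgr6-negative libraries, moved in the same direction, and their part was not tested. Lrrc4, looked up after these values were seen, had 2 and 0 counts against 0 and 85, so nearly all its counts came from 1 Lgr6-negative library, and it was not tested.

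Ntn1, the secreted netrin known from mammary end buds, lies on chr11:68209364-68400823. It had 693 and 560 counts against 44 and 48, or 78.0 ± 9.91 CPM against 7.70 ± 1.18 CPM, and replicates were close within both populations. The log2 fold change was 3.34 (SE 0.93, edgeR adjusted p = 0.0601), and with DESeq2, without a filter and with scaling by library size alone it passed (range over 13 alternatives 3.46e-04 to 0.143). Ntng1, netrin G1, rested on Lgr6-positive replicate 2, with 11 and 291 counts against 1 and 17. Its log2 fold change of 3.58 (SE 2.19, edgeR adjusted p = 0.377) was -0.25 without that library. Unc5b, the netrin receptor of blood vessels and the single tested Unc5 receptor, had 64 and 48 counts against 10 and 4 (log2 fold change 2.60, edgeR adjusted p = 0.479). It was picked after its values were seen.

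The 28 members that were not tested include 9 without a count in any library. Of the 19 others, 12 had counts in 1 library only, which was Lgr6-positive replicate 1 for 9 of them. A library reached 50 counts for 3 of the 19. Unc5c, a netrin receptor, had 127 counts in Lgr6-positive replicate 1 and none elsewhere. Sema3b, a secreted semaphorin, had 65 and 0 counts against 0 and 3, and Sema5b had 2 and 0 against 0 and 94. In each of these 3, the replicate of the same population had no count, so the value describes a library and not a population.

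Levels between genes were compared as mean CPM per kb of exon, which accounts for gene length. The highest level in the Lgr6-positive population was that of Plxnb2 at 49.6 CPM per kb (37.5 and 61.7 in the 2 libraries). Unc50 followed at 34.8, Ephb4 at 27.9, Plxnd1 at 23.6, Robo4 at 21.0, Nrp1 at 14.3, Nrp2 at 14.0 and the ligand Efnb2 at 13.9 CPM per kb. Neighbours in that order overlapped, for example Ephb4 (19.1 to 36.6) with Plxnd1 (13.2 to 34.0), except for Robo4 (19.0 to 23.1) and Nrp1 (11 to 17.7). In the Lgr6-negative population the order began with Sema4d at 104 CPM per kb (84.5 and 124), then Sema4a at 51.9 (41.8 to 62.0), and their libraries did not overlap. Unc50 at 26.6, Plxnb2 at 18.7, Plxnd1 at 17.3 and Ntng2 at 15.1 CPM per kb came next, and of these only Unc50 and Plxnb2 overlapped as neighbours.

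**Figure D3:**
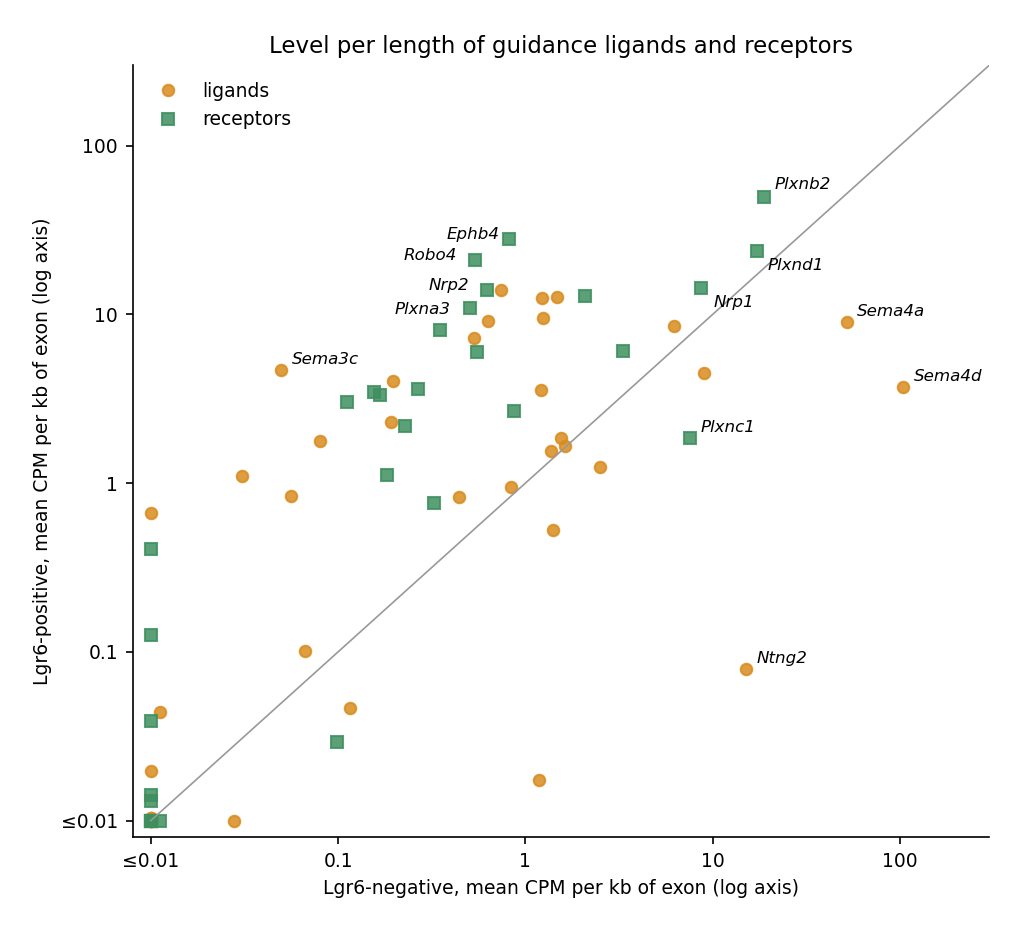
Mean CPM per kb of exon of guidance ligands (circles) and receptors (squares), Lgr6-negative on the horizontal and Lgr6-positive on the vertical log axis, with values up to 0.01 drawn at the axis. Points above the diagonal were higher in the Lgr6-positive libraries, as for Ephb4 (27.9 CPM per kb), and Sema4d (104 CPM per kb in the Lgr6-negative libraries) lies farthest right.

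The make-up of the families also differed between the populations. Guidance members took 0.311% and 0.258% of all counts in Lgr6-positive against 0.155% and 0.161% in Lgr6-negative libraries. All counts here include the ribosomal RNA gene Rn45s, which took 17.2% and 14.5% against 18.7% and 30.8%, so these shares depend on it as well. Plexins and neuropilins held 47.9% and 54.8% of these member counts in Lgr6-positive against 26.0% and 23.7% in Lgr6-negative libraries. Semaphorins held 21.1% and 12.5% against 64.1% and 65.9%. Sema4d alone took 38.9% (37.9 to 39.8, 95% Wilson interval) and 46.2% (45.3 to 47.1) of member counts in the Lgr6-negative libraries, and 1.08% (0.945 to 1.22) and 1.27% (1.11 to 1.44) in the Lgr6-positive ones. Eph receptors held 11.9% and 9.23% against 1.40% and 2.89%, ephrins 6.95% and 7.06% against 0.645% and 1.28%, and Slits and Robos 6.02% and 8.17% against 0.617% and 0.615%. Netrins and Unc5 receptors held nearly the same share throughout, 4.67% and 5.01% against 3.97% and 4.19%. Most of that share was Ntn1 in the Lgr6-positive libraries (693 of 990 and 560 of 905 counts) and Ntng2 in the Lgr6-negative libraries (367 of 425 and 355 of 484). Within each family, the 2 libraries of a population were closer to each other than to the other population. With 2 libraries against 2, an exact permutation test of a share cannot reach p = 0.05, and none was made. Intervals here cover counting error alone, because PCR copies of a molecule are not separated in these counts.

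Other genes of these pathways were taken from a pair of lists. Of 30 co-receptors and extracellular partners, 21 were tested, 2 were higher and 1 was lower, and the median log2 fold change was 1.65. The shares called were 9.52% and 4.76%, against 4.49% and 4.57% of all tested genes. The higher ones were the Vegf receptors Kdr and Flt1, which work with neuropilins. Kdr had 799 and 1739 counts against 115 and 21 (log2 fold change 3.87, SE 0.93, edgeR adjusted p = 0.0352), and Flt1 had 1314 and 1483 against 272 and 141 (2.37, SE 0.60, edgeR adjusted p = 0.0438). Neither held under every alternative: Kdr had an adjusted p of 0.0516 without Lgr6-positive replicate 2 and 0.0859 with limma-voom, and Flt1 had 0.148 without Lgr6-negative replicate 2. Over 13 alternatives the lowest values were 5.85e-05 for Kdr and 0.00205 for Flt1. Kdr is also among the endothelial markers. Tyrobp, the adaptor that signals beside Plxna1 in dendritic cells and is itself a leukocyte marker here, had 618 and 191 counts against 7141 and 8767 (log2 fold change -4.74, SE 0.58, edgeR adjusted p = 0.00202). Flrt2, a membrane ligand of Unc5 receptors, had 257 and 39 counts against 1 and 1, and did not pass (edgeR adjusted p = 0.0972). After TMM scaling this was a 111-fold difference (95% interval from counting error, 30.5 to 921). Ryk, a Wnt receptor that also binds Eph receptors, had 270 and 406 against 12 and 23 (edgeR adjusted p = 0.103).

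Of 40 intracellular effectors, 37 were tested, 4 were higher and 1 was lower, with a median log2 fold change of 0.20. This is 10.8% and 2.7% of the list, against the same 4.49% and 4.57%, and the median over all tested genes was 0.10. Arhgef12, a guanine nucleotide exchange factor that binds B-class plexins, had 3263 and 4066 counts against 113 and 142, or 458 ± 81.4 CPM against 21.4 ± 5.38 CPM. Its log2 fold change of 4.42 (SE 0.49) had an edgeR adjusted p of 0.00143. Farp1, an exchange factor with a FERM domain, had 639 and 622 counts against 13 and 23 (log2 fold change 4.68, SE 1.05, edgeR adjusted p = 0.0274, and 0.0602 with limma-voom). Grb7, an adaptor of receptor tyrosine kinases, had 345 and 361 counts against 3 and 0, with an edgeR adjusted p of 0.0346. After TMM scaling this was a 177-fold difference (95% interval from counting error, 60.2 to 858). Rnd1, a small GTPase that binds plexins, had 146 and 940 counts against 0 and 4 (edgeR adjusted p = 0.0351), and without Lgr6-positive replicate 2 the adjusted p was 0.247. Over 13 alternatives these were the highest values for Farp1 and Rnd1, and the lowest were 1.94e-06 and 3.05e-06. Cfl1, cofilin, which severs actin filaments, had 963 and 673 counts against 3901 and 3883, or 102 ± 23.2 CPM against 649 ± 57.7 CPM (log2 fold change -2.67, SE 0.39, edgeR adjusted p = 0.00428).

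How many members passed depended strongly on the processing, and on the higher side more than on the lower. The reported count of 3 higher members became 17 with DESeq2, where 12.3% of all genes with an adjusted p were higher, and 13 without a filter on low counts, where 6.08% were. Scaling by library size alone gave 5 (5.39% of genes). Leaving out Lgr6-positive replicate 1 or 2 gave 8 in either case (7.62% and 5.25%), and leaving out Lgr6-negative replicate 1 or 2 gave 5 (5.31%) or 10 (5.14%). On the lower side, 3 members passed with DESeq2, where 8.77% of all genes with an adjusted p were lower. Without a filter the count was 3 (5.37% of genes), and with scaling by library size alone it was 2 (2.8%). The 6 reported calls all remained with DESeq2, without a filter, with a stricter filter, with upper quartile or DESeq2 scaling in edgeR and without the ribosomal RNA gene Rn45s. Ephb4, Nrp2 and Plxna3 were lost with limma-voom.

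**Figure D4:**
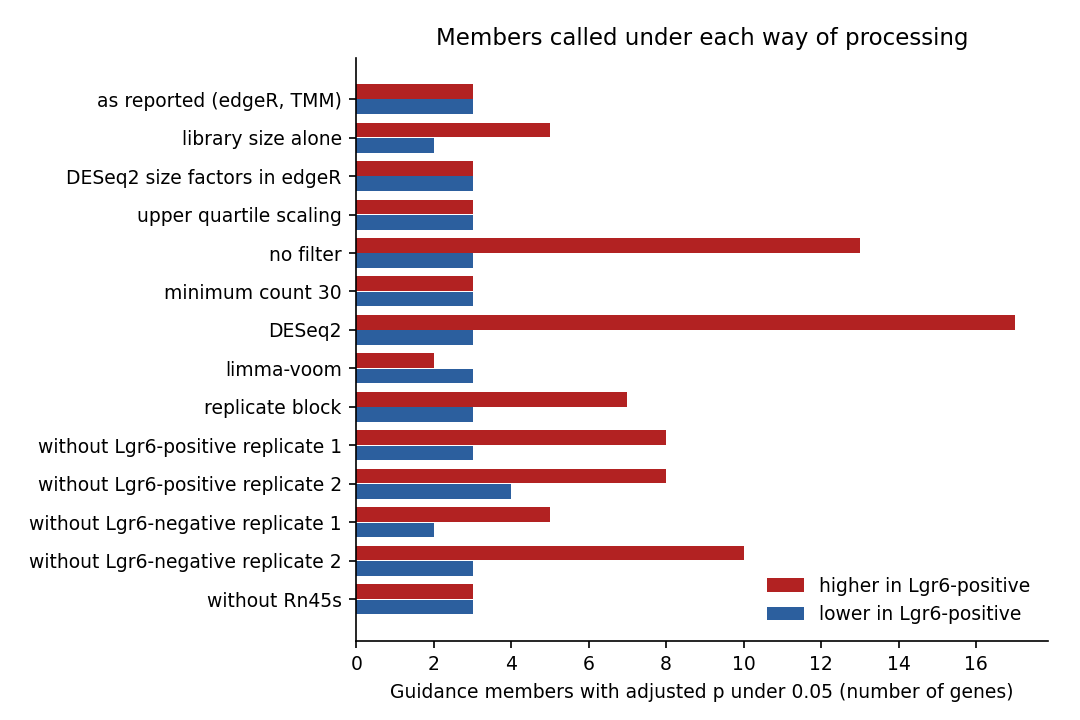
Number of guidance members (horizontal axis) with an adjusted p under 0.05, higher (red) or lower (blue) in Lgr6-positive libraries, under each way of processing. The red bars run from 2 with limma-voom to 17 with DESeq2, and the blue bars from 2 to 4.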

How the data were processed

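The authors deposited a table of expected counts per gene for 4 libraries, estimated and not scaled for depth. The tools RSEM 1.2.22 and STAR 2.4.2a, and build mm10, come from the submitters' processing notes. Their roles, the annotation, strand setting and trimming are not given there. Input RNA was scarce (7 to 25 pg per µl, RIN 5 to 8, amplified over 18 PCR cycles, per the labels). Fractional values, 3.36% to 4.86% of genes per library, were rounded. Groups came from the labels.

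Counts were tested with edgeR 4.0.16 in R 4.3.3 (TMM, filterByExpr with minimum count 10 and minimum total 15, glmQLFit and glmQLFTest, group only), with Benjamini-Hochberg adjustment over 11661 genes and a threshold of 0.05. SE is the size of the log2 fold change divided by √F. The floor of 3 counts is 0.368, 0.380, 0.468 and 0.533 CPM in the Lgr6-positive and Lgr6-negative libraries. The code was tested on simulated data with far less spread between replicates than here (common dispersion 0.795) and changes only in well-counted genes. That checks the code, and it gives no error rate or power for the calls above. Alternatives used other scalings and filters, DESeq2 1.42.0, limma 3.58.1 (voom), a replicate block, each library left out, and removal of Rn45s.

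Members and lists were chosen with earlier results of these data known. The rule for naming took called members, then the smallest p-values up to 3 per family, untested members with at least 50 counts in a library, and up to 5 genes per list of other pathway genes. Plxnb1, Plxnb2, Plxna2, Plxna4, Plxnc1, Plxnd1, Nrp1, Sema3f, Sema3g, Sema4g, Sema5a, Sema6a, Sema7a, Epha1, Epha4, Unc5b and Lrrc4 were named after their values were seen. All 73 members were matched by symbol to GENCODE M21 (GRCm38) for positions and exonic lengths, and 63 to RefSeq promoters.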

Additional observations from a re-analysis of the deposited data

How the results depend on the processing

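The number of guidance members higher in Lgr6-positive libraries (3 as reported) was 5 with scaling by library size, 13 with no filter, 17 with DESeq2 and 5 to 10 with each library left out in turn. The number of partner genes higher (2 as reported) was 7 with DESeq2 and 1 with limma-voom, where 12.3% and 6.47% of all genes were higher. Effector genes higher (4 as reported) numbered 7 with no filter, where 6.08% of all genes were higher. Effector genes lower (1 as reported) numbered 3 with no filter, 4 with DESeq2 and 3 with limma-voom. Of all genes, 5.37%, 8.77% and 6.24% were lower under these settings. Under scaling by library size the median log2 fold change of all genes moved by 0.45, and 65.8% of all calls were on the higher side instead of 49.6%. With the replicate number as a block, 7 members were higher (5.81% of all genes) and 3 lower (5.68% of all genes), and 2 effector genes were lower. The 6 reported calls remained under the block. Same-numbered libraries did not deviate together (correlation -0.02 of deviations from the group means). With so few libraries this cannot tell whether a number marks a shared animal or day, which the labels do not say. Among the genes named in the text, log2 fold changes that changed sign with a library left out were those of Ntng1 (-0.25 to 6.79), Slit2 (-3.55 to 7.26), Plxnd1 (-0.39 to 0.95) and Sema7a (-4.68 to 3.94). A lone library left in a population was assumed to vary like the others. The causes were not tested. The 28 untested members fell below the count filter. For members with a count of 0 in an Lgr6-negative library, the fitted fold changes are not bounds.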
